A study of Homo sapiens with 12 samples.

Results

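Of the 26258 genes of the deposited table, 9 that act in pericellular proteolysis were followed. They are the collagenase MMP1, the gelatinase MMP2, the membrane-anchored metalloproteinases MMP14 and MMP15, the inhibitors TIMP1, TIMP2 and TIMP3, urokinase (PLAU) and its receptor (PLAUR). They were selected on measured values: MMP1 was among the largest rises with siATF4 under Sorafenib, and the others were taken with it as proteases and inhibitors of the same systems. That contrast is therefore given as a description without a test.

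The cells were HLE, an established human hepatocellular carcinoma line. They received siCtrl, a control siRNA, siY/T, which targets YAP together with TAZ, or siATF4, and then either the vehicle DMSO or 5 µM Sorafenib (Srf), a kinase inhibitor. All 12 libraries, 2 in each of the 6 groups, come from this single line, and both siRNA arms and the controls were transfected. Poly(A) RNA was sequenced, and each value is CPM, reads per 1000000 reads on genes. The study's methods speak of biological replicates, but of more per group than the 2 libraries analysed here, and its text gives another Sorafenib dose than the labels, which were followed. The labels state neither how long the drug was given, for which only the study's text has a time, nor whether the 2 libraries of a group come from separate cultures, so that the p-values measure the spread between these libraries, which may be technical.

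Interstitial collagen is cut by secreted collagenases such as MMP1, while membrane-type metalloproteinases act at the cell surface, where MMP14 together with TIMP2 activates the pro-form of MMP2. TIMPs bind the active site of metalloproteinases and block it. Urokinase, bound to its receptor, turns plasminogen into plasmin, which cleaves matrix and can activate pro-metalloproteinases. In tumours these genes are known for their part in matrix turnover and invasion, and several are classical targets of the AP-1 and ETS transcription factors.

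Depth was even, with 41408348 to 53619732 reads on genes per library. The siRNA targets followed their labels. YAP1 was at 46.6 to 57.7 CPM in the 4 siY/T libraries against 236 to 279.9 CPM in the other 8, WWTR1 (TAZ) at 49.3 to 68.6 against 104 to 173 CPM, and ATF4 at 84.5 to 101 CPM in the 4 siATF4 libraries against 197 to 492 CPM. WWTR1 was also lower in siATF4 DMSO libraries (107 and 104 CPM) than in siCtrl DMSO libraries (169.8 and 173 CPM). Of 9 hepatocyte markers, 7 (ALB, APOA1, APOB, TTR, TF, HNF4A and AFP) stayed under 1 CPM in all 12 libraries, while all 5 mesenchymal markers reached 1 CPM. The 3 endothelial markers and the leukocyte markers PTPRC and CD14 were under 1 CPM throughout, as were DCN and LUM of the 3 fibroblast markers. Single markers of these lists moved with siATF4: FGB was at 64.4 to 72.2 CPM in the 4 siATF4 libraries against 173 to 431 CPM in the other 8, PDGFRB at 7.15 to 19.0 against 41.3 to 79.3 CPM, CD68 at 61.3 to 75.0 against 19.8 to 32.4 CPM, and of the mesenchymal markers FN1 at 18.8 to 42.4 against 53.0 to 79.6 CPM and ZEB1 at 23.0 to 27.0 against 7.84 to 16.1 CPM. Of the 5 epithelial markers, KRT19 and EPCAM stayed under 1 CPM, and the list summed to between 978 and 3333 CPM. KRT8 and KRT18 fell with siY/T in DMSO by 1.74 ± 0.05 and 1.65 ± 0.05 (limma, adjusted p = 1.83e-10 for both), and CDH1 was at 0.0396 to 0.379 CPM in siATF4 against 0.653 to 7.93 CPM in the other libraries. The part of these markers in the results was not tested. The siY/T DMSO pair stood furthest apart, with an SD of the log2 difference between its libraries of 0.190 against 0.110 to 0.132 in the other groups, and results that rest on one of these libraries are given without it.

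PLAUR is shown by sequence because it is the member whose promoter held a searched motif and because it moved with MMP1 below. The 250 bases before its RefSeq start (GRCh38.p14, chr19:43670170-43670419, minus strand) are printed 5′ to 3′ with the AP-1 match TGAGTCA in capitals, and the same window of PLAU (chr10:73910360-73910609, plus strand) stands beside it as the ligand that moved differently.
PLAUR: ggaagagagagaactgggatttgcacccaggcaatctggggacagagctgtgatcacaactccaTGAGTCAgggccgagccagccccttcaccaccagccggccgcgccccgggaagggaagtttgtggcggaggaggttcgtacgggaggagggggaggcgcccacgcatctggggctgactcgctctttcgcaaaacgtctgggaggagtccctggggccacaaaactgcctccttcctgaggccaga
PLAU: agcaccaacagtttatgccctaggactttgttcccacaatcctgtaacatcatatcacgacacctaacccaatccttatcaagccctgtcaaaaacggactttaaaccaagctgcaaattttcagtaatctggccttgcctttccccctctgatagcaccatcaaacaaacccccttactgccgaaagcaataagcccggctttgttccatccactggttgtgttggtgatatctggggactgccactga
The motifs searched on both strands were TGANTCA (AP-1), GGAATG (TEAD) and TGATGNAA (the composite site of ATF4 and C/EBP factors). They occur in 6.6%, 11.9% and 3.19% of the same windows of 27305 genes. Of the 6 members with an entry (MMP14, MMP15, TIMP1, TIMP3, PLAU and PLAUR), PLAUR alone held a match, 1 AP-1 match that begins at position -186 from the start. MMP1, MMP2 and TIMP2 have no entry. A match describes these letters and not a bound site, and the lack of one says only that they are not in this window. Only 1 RefSeq start was used per gene, and windows of any other start were not searched.

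MMP1, the interstitial collagenase (chromosome 11, 102660132 to 102668891, minus strand, GRCh37), had the widest range of the 8 members that passed the filter on low values. It was at 799 and 748 CPM in siCtrl libraries with DMSO, 548 and 413 CPM with siY/T and 6173 and 5446 CPM with siATF4. Under Sorafenib it was at 175 and 195 CPM in siCtrl, 133 and 106 CPM in siY/T and 1449 and 1473 CPM in siATF4 libraries. The siATF4 libraries were the highest with and without the drug, each Sorafenib group lay below its DMSO group, and no neighbouring groups in this order overlapped. In bulk RNA, fewer cells that express a gene and less RNA per cell cannot be told apart. The highest group mean was 48.5 times the lowest.

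**Figure D1:**
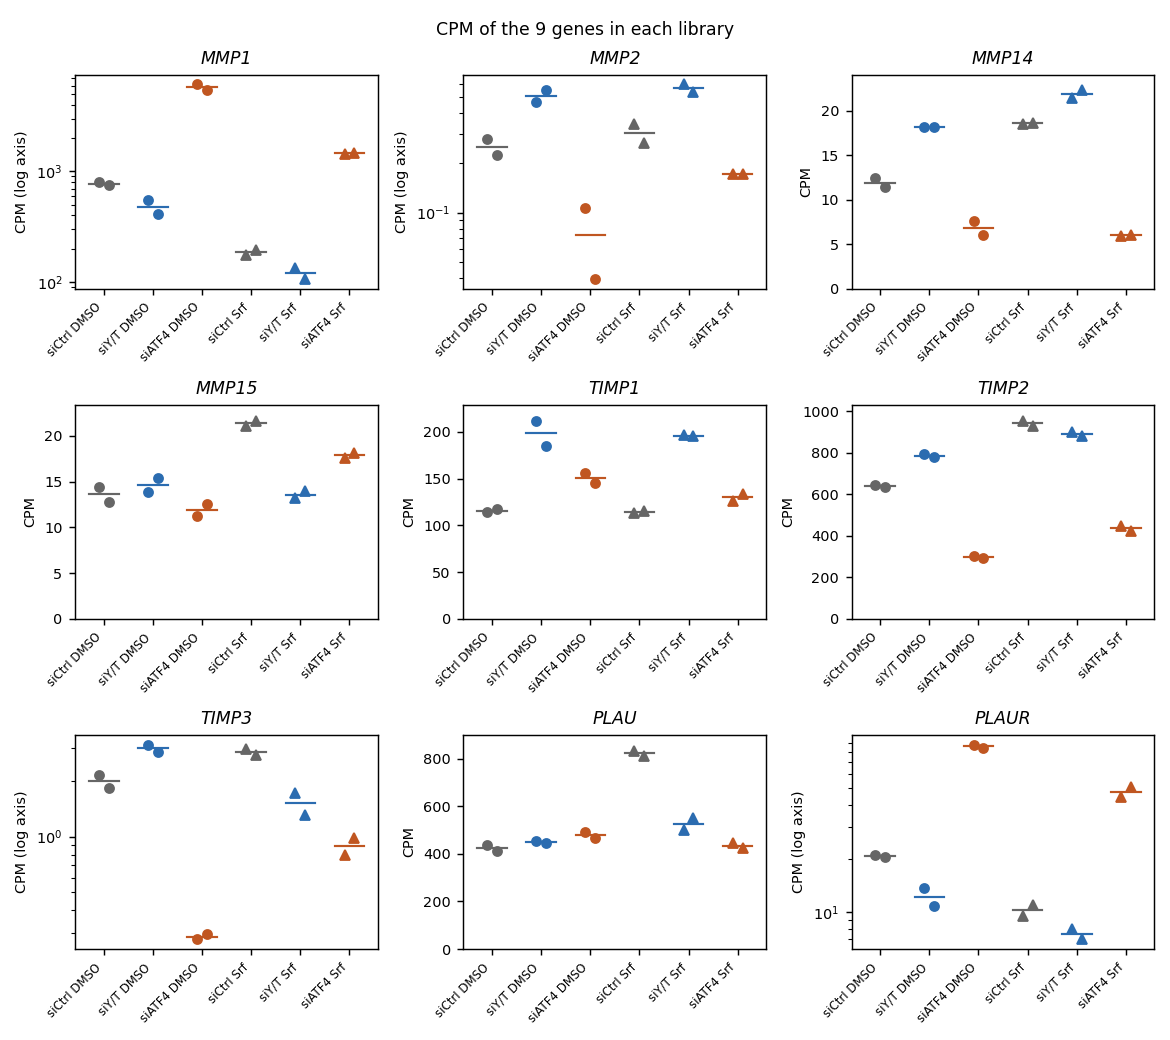
CPM of the 9 genes in each of the 12 libraries, with circles for DMSO, triangles for Sorafenib (Srf) and a line at the mean of each group of 2; MMP1, MMP2, TIMP3 and PLAUR are on log axes. MMP1 and PLAUR share the order with siATF4 on top, up to 6173 and 88.0 CPM, whereas TIMP2 and MMP14 are lowest in siATF4 libraries.

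In DMSO, which shares no library with the contrast that chose the genes, siATF4 raised MMP1 by 2.91 ± 0.12 on the log2 scale of CPM + 0.5 (SE, n = 2 and 2 libraries; limma with Benjamini-Hochberg adjustment, adjusted p = 3.58e-10), a 7.49-fold difference. By size this was the fifth largest rise, rank 5 of 13515 genes tested. MMP1 took 0.617% and 0.545% of all reads on genes in the siATF4 DMSO libraries, against 0.0799% and 0.0748% in the siCtrl DMSO libraries. Under Sorafenib the difference was 2.98 ± 0.12, or 7.88-fold and rank 4, which is the value that chose the gene. The difference between the siATF4 effect in Sorafenib and in DMSO was 0.07 ± 0.17.

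Sorafenib lowered MMP1 in siY/T cells by 1.99 ± 0.12 on the log2 scale (limma with Benjamini-Hochberg adjustment, adjusted p = 5.34e-08), with no overlap between the libraries. The same contrast gave -2.06 ± 0.12 in siCtrl cells, the third lowest of all genes tested, and -1.99 ± 0.12 in siATF4 cells. These values share libraries with the contrast that chose MMP1 and carry no test. The siATF4 Srf libraries, at 1449 and 1473 CPM, thus still stood above the untreated siCtrl libraries at 799 and 748 CPM.

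With siY/T in DMSO, MMP1 fell by 0.70 ± 0.12 on the log2 scale (limma with Benjamini-Hochberg adjustment, adjusted p = 2.53e-04). Both siY/T libraries, 548 and 413 CPM, were under both controls, but without siY/T DMSO replicate 2 the difference was -0.50 and no longer passed the 0.58 threshold, and without replicate 1 it was -0.91. Under Sorafenib the difference was -0.63 ± 0.12, given without a test, and it ranged from -0.80 to -0.47 when single libraries were left out.

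Among the reads on its family, not corrected for length, MMP1 took the largest part in every library. It made up 90.4% and 89.9% of the summed CPM of 23 matrix metalloproteinases in siCtrl DMSO libraries. The share was 85.3% and 79.5% in siY/T DMSO and 98.9% and 98.8% in siATF4 DMSO libraries. Under Sorafenib it was 61.1% and 63.9% in siCtrl, 53.6% and 47.7% in siY/T, and 95.8% and 95.9% in siATF4 libraries. The neighbours of MMP1 in the gene cluster on chromosome 11 stayed low. MMP7, MMP8, MMP12, MMP13, MMP20 and MMP27 were under 1 CPM in every library. The stromelysin MMP3 was at 0.857 and 0.753 CPM in siATF4 DMSO libraries, against 0.0373 and 0 in siCtrl DMSO libraries, and at most 0.0948 CPM in the other groups. MMP3 did not pass the filter and was not tested. MMP10, at 0.436 to 1.22 CPM, differed by 0.30 ± 0.15 with siATF4 in DMSO (limma, adjusted p = 0.083). WTAPP1, which shares 150 exon bases with MMP1 on the opposite strand, was at 1.67 and 1.76 CPM in siATF4 DMSO libraries and at 0.429 to 0.942 CPM elsewhere. The strand setting of the counting is not stated, so reads of both genes in the shared bases cannot be told apart.

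MMP14 (chromosome 14, 23305769 to 23318250, plus strand), the main membrane-type activator of pro-MMP2, went the other way from MMP1 with siATF4. It was at 12.4 and 11.4 CPM in siCtrl libraries with DMSO, 18.2 and 18.2 CPM with siY/T and 7.65 and 6.08 CPM with siATF4. With Sorafenib it was at 18.5 and 18.7 CPM in siCtrl, 21.5 and 22.3 CPM in siY/T and 5.97 and 6.04 CPM in siATF4 libraries. The 4 siATF4 libraries were the lowest, and no neighbouring groups overlapped. In DMSO, siATF4 lowered it by 0.76 ± 0.09 (log2; limma with Benjamini-Hochberg adjustment, adjusted p = 6.26e-06), and Sorafenib raised it by 0.62 ± 0.09 in siCtrl cells (limma, adjusted p = 4.82e-05). Under Sorafenib the siATF4 difference was -1.55 ± 0.09, and it differed from that in DMSO by -0.80 ± 0.13, both without a test. With siY/T in DMSO it rose by 0.59 ± 0.09 (limma, adjusted p = 8.34e-05), only just past the threshold of 0.58: with edgeR, DESeq2, TMM scaling or a pseudocount of 1 the value was 0.54 to 0.58 and did not pass, and without siCtrl DMSO replicate 2 it was 0.53. The Sorafenib rise was also 0.56 without that library.

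MMP15 (chromosome 16, 58059658 to 58080805, plus strand), another membrane-type enzyme, varied over a narrow range, its highest group mean being 1.79 times its lowest. It was at 14.4 and 12.8 CPM in siCtrl libraries with DMSO, 13.8 and 15.4 CPM with siY/T and 11.3 and 12.6 CPM with siATF4, and at 21.0 and 21.7, 13.2 and 14.0, and 17.6 and 18.1 CPM in the corresponding Sorafenib libraries. The siCtrl Srf pair was the highest, and siY/T DMSO, siCtrl DMSO and siY/T Srf libraries overlapped one another in order. Sorafenib raised it in siCtrl cells by 0.63 ± 0.08 (log2; limma with Benjamini-Hochberg adjustment, adjusted p = 1.66e-05), though the value was 0.55 without siCtrl DMSO replicate 2. In siY/T cells the same contrast gave -0.10 ± 0.08 (limma, adjusted p = 0.30).

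MMP2 (chromosome 16, 55423612 to 55540603, plus strand), the gelatinase that MMP14 and TIMP2 activate, was low in all libraries and did not pass the filter of 1 CPM in 2 libraries. Its reads numbered 15 and 10 in siCtrl DMSO, 24 and 23 in siY/T DMSO, 5 and 2 in siATF4 DMSO, 17 and 13 in siCtrl Srf, 28 and 23 in siY/T Srf and 9 and 8 in siATF4 Srf libraries. The siATF4 libraries held the fewest reads under both conditions, and no test was made at this depth.

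TIMP1 (chromosome X, 47441807 to 47446188, plus strand), a secreted inhibitor of metalloproteinases, was raised by siY/T whether or not Sorafenib was given. It was at 115 and 117 CPM in siCtrl libraries with DMSO, 212 and 185 CPM with siY/T and 156 and 145 CPM with siATF4. With Sorafenib it was at 113 and 116, 196 and 196, and 126 and 134 CPM. All 4 siY/T libraries lay above all others, and the siCtrl groups overlapped each other. The rise with siY/T was 0.77 ± 0.06 in DMSO (limma with Benjamini-Hochberg adjustment, adjusted p = 2.45e-07) and 0.78 ± 0.06 under Sorafenib (limma, adjusted p = 3.42e-07), and the difference between these effects was 0.00 ± 0.08 (limma, adjusted p = 0.97).

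TIMP2 (chromosome 17, 76849059 to 76921469, minus strand), the inhibitor that also docks pro-MMP2 on MMP14, was lower with siATF4. It was at 644 and 634 CPM in siCtrl libraries with DMSO, 792 and 778 CPM with siY/T and 301 and 294 CPM with siATF4. With Sorafenib it was at 955 and 929, 901 and 879, and 449 and 424 CPM. The 4 siATF4 libraries lay below the other 8, and no neighbouring groups overlapped. In DMSO, siATF4 lowered it by 1.10 ± 0.04 (log2; limma with Benjamini-Hochberg adjustment, adjusted p = 1.12e-10), or to 0.466 of the control level. The Sorafenib difference was -1.11 ± 0.04, described only. Sorafenib itself gave 0.56 ± 0.04 in siCtrl cells (limma, adjusted p = 1.19e-07), under the 0.58 threshold.

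TIMP3 (chromosome 22, 33197691 to 33259028, plus strand), the inhibitor that stays bound to matrix, was low throughout. It was at 2.16 and 1.84 CPM in siCtrl libraries with DMSO, 3.14 and 2.85 CPM with siY/T and 0.279 and 0.297 CPM with siATF4, the last from 13 and 15 reads. With Sorafenib it was at 2.96 and 2.75, 1.71 and 1.31, and 0.796 and 0.985 CPM. The siATF4 pair in DMSO was the lowest, and siY/T DMSO overlapped siCtrl Srf. In DMSO, siATF4 lowered it by 1.66 ± 0.13 (log2 of CPM + 0.5; limma with Benjamini-Hochberg adjustment, adjusted p = 1.25e-07). At such levels the size depends on the pseudocount, and the values over the settings tried ran from -2.80 to -1.22, each past the threshold. With siATF4, Sorafenib raised it by 0.82 ± 0.13 (limma, adjusted p = 1.97e-04), with values from 0.55 with a pseudocount of 1, which did not pass, to 1.59 with DESeq2. In siY/T cells, Sorafenib lowered it by 0.80 ± 0.13 (limma, adjusted p = 2.07e-04).

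**Figure D2:**
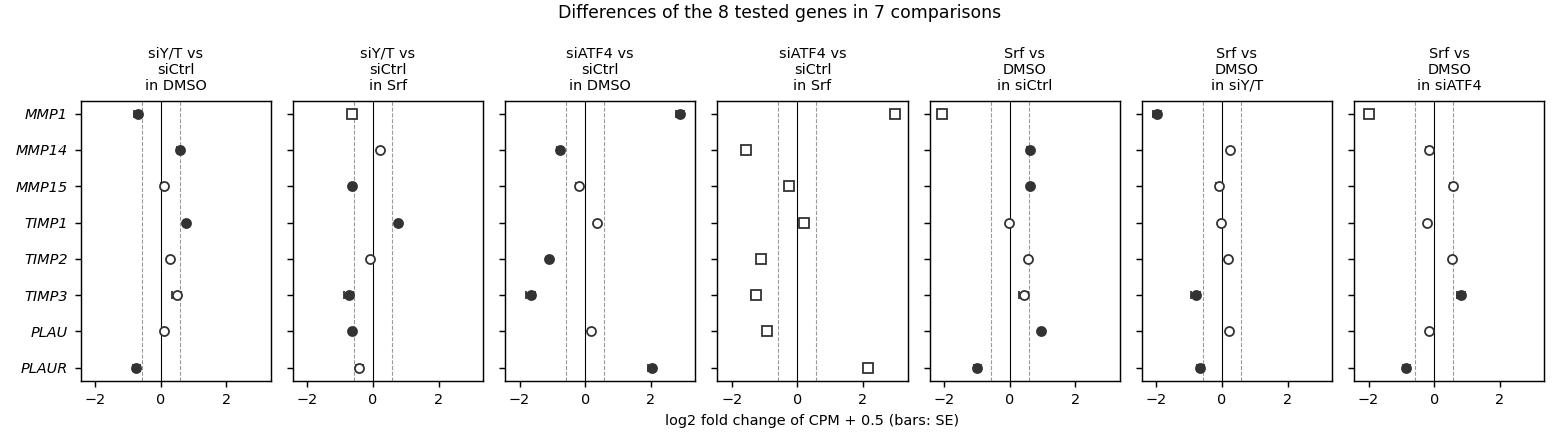
Log2 fold changes of CPM + 0.5 with SE bars for the 8 genes tested, in 7 comparisons; filled circles passed unadjusted P under 0.05 and 0.58 (dashed lines), open circles did not, and open squares carry no test. The siATF4 panels hold the widest spread, from -1.66 for TIMP3 to 2.91 for MMP1 in DMSO.

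Transcript levels can be set beside each other only per length, here as CPM per kb of the GENCODE canonical transcript. MMP1 stood at 1.24 and 1.16 times the sum of TIMP1, TIMP2 and TIMP3 per kb in siCtrl DMSO libraries, at 11.0 and 10.3 times in siATF4 DMSO, and at 0.564 and 0.460 times in siY/T DMSO libraries. Under Sorafenib the ratio was 0.217 and 0.245 in siCtrl, 0.135 and 0.109 in siY/T, and 2.56 and 2.57 in siATF4 libraries. By this measure MMP1 stood above the 3 inhibitors summed in siCtrl DMSO and in both siATF4 groups, and below them in the other 3 groups. Reads were counted over RefSeq exons but divided by GENCODE lengths. The order in siCtrl DMSO, where the ratio was near 1, therefore depends on the lengths used. TIMP1 and TIMP2 were of like level in siCtrl DMSO cells, with means of 151 and 175 CPM per kb, and TIMP3 had 0.436 CPM per kb.

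**Figure D3:**
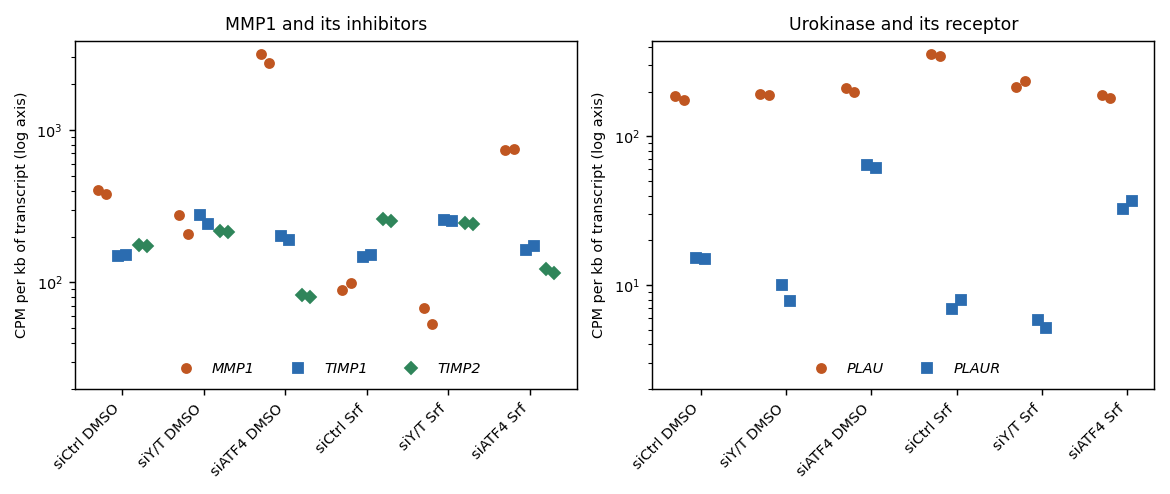
CPM per kb of transcript on log axes, 1 point per library, for MMP1 with TIMP1 and TIMP2 (left) and for PLAU with PLAUR (right). MMP1 lies above both inhibitors in the siCtrl DMSO and siATF4 groups and below both in the siCtrl Srf and siY/T Srf groups.

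PLAU (chromosome 10, 75668935 to 75677254, plus strand), the serine protease urokinase, rose with Sorafenib in control cells and did not pass the call in cells with either siRNA. It was at 438 and 411 CPM in siCtrl libraries with DMSO, 453 and 447 CPM with siY/T and 493 and 467 CPM with siATF4. With Sorafenib it was at 833 and 812 CPM in siCtrl, 502 and 551 CPM in siY/T and 444 and 423 CPM in siATF4 libraries. The siCtrl Srf pair stood above all others, and siATF4 Srf overlapped siCtrl DMSO. Sorafenib raised it by 0.96 ± 0.05 in siCtrl cells (log2; limma with Benjamini-Hochberg adjustment, adjusted p = 1.26e-08). The same contrast was 0.22 ± 0.05 in siY/T cells (limma, adjusted p = 2.75e-03) and -0.15 ± 0.05 in siATF4 cells (limma, adjusted p = 0.030), neither past 0.58. The difference of the siY/T effects between Sorafenib and DMSO was -0.73 ± 0.07 (limma, adjusted p = 7.68e-05). Under Sorafenib, siY/T lowered it by 0.65 ± 0.05 (limma, adjusted p = 5.07e-07), and by 0.58, just short of the threshold, without siY/T Srf replicate 1. C10orf55, which shares 429 exon bases with PLAU on the opposite strand, was at 0.772 to 2.46 CPM in all libraries, a small share of the level of PLAU.

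PLAUR (chromosome 19, 44150247 to 44174699, minus strand), the receptor that holds urokinase at the cell surface, followed MMP1 and not its ligand. It was at 21.0 and 20.6 CPM in siCtrl libraries with DMSO, 13.7 and 10.8 CPM with siY/T and 88.0 and 84.2 CPM with siATF4. With Sorafenib it was at 9.48 and 10.9 CPM in siCtrl, 8.0 and 7.01 CPM in siY/T and 44.4 and 50.6 CPM in siATF4 libraries. All 4 siATF4 libraries lay above the other 8, and siY/T DMSO overlapped siCtrl Srf. In DMSO, siATF4 raised PLAUR by 2.02 ± 0.11 (log2; limma with Benjamini-Hochberg adjustment, adjusted p = 2.92e-09), rank 39 of 13515 genes. The Sorafenib difference was 2.17 ± 0.11, rank 22, described only. Sorafenib lowered it by 0.99 ± 0.11 in siCtrl cells (limma, adjusted p = 3.51e-06) and by 0.85 ± 0.11 in siATF4 cells (limma, adjusted p = 2.88e-05). In siY/T cells it fell by 0.66 ± 0.11 (limma, adjusted p = 2.03e-04), though by 0.50 without siY/T DMSO replicate 1 and 0.57 without siY/T Srf replicate 2. In DMSO, siY/T lowered it by 0.75 ± 0.11 (limma, adjusted p = 4.72e-05).

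Per length, the receptor moved from 0.0821 and 0.0858 of the level of its ligand in siCtrl DMSO libraries to 0.306 and 0.309 in siATF4 DMSO libraries, and stood at 0.0195 and 0.0230 in siCtrl Srf libraries.

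The members are now counted against all genes, where a call is an unadjusted P under 0.05 with a log2 fold change of at least 0.58. With siY/T in DMSO, 2 of the 8 members tested rose (MMP14 and TIMP1) and 2 fell (MMP1 and PLAUR), where 11.0% of all 13515 genes rose and 3.61% fell. With siATF4 in DMSO, 2 rose (MMP1 and PLAUR) and 3 fell (MMP14, TIMP2 and TIMP3), where 8.57% of all genes rose and 14.1% fell. Both comparisons use the same siCtrl libraries. With Sorafenib in siCtrl cells, 3 of the 7 members tested rose (MMP14, MMP15 and PLAU) and PLAUR fell, beside 12.3% and 5.15% of all genes, but leaving out siCtrl DMSO replicate 2 left 2 of these 4 calls. With siY/T under Sorafenib, TIMP1 rose and MMP15, PLAU and TIMP3 fell, beside 6.11% and 3.84%. With Sorafenib in siY/T cells, 0 rose by limma, edgeR or DESeq2 (3 at an unadjusted P under 0.05 with a smaller fold) and MMP1, PLAUR and TIMP3 fell, beside 5.83% and 4.14%. With Sorafenib in siATF4 cells, TIMP3 rose and PLAUR fell, beside 5.68% and 2.95%. In the contrast that chose the members, siATF4 under Sorafenib, 2 exceeded 0.58 upward and 4 downward, with 10.3% and 18.7% of all genes past that fold, and nothing is read from this count. The siY/T effect differed between Sorafenib and DMSO at an adjusted p under 0.05 (limma) for 4 of 7 members, MMP15, TIMP2, TIMP3 and PLAU, against 22.0% of all genes. That share moved with single libraries: of 13515 genes, 1581 passed without siCtrl DMSO replicate 2 (11.7%), 1623 without siCtrl Srf replicate 2, 1949 without siY/T Srf replicate 1 (14.4%) and 4575 without siY/T DMSO replicate 2 (33.9%), against 2978 with all libraries. With no filter on low values it was 11.6% of 20710 genes.

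Other proteases and inhibitors, 104 genes listed in 6 families with 52 of them tested, leaned downward with siATF4. In DMSO, 6 rose and 22 fell, beside 8.57% and 14.1% of all genes, with a median log2 fold change of -0.33 against -0.0013 over all genes. The 30 ADAM and ADAMTS genes, shedding and matrix-cleaving metalloproteinases related to the MMPs, had 1 rise and 10 falls among 19 tested, and a median of -0.59. The aggrecan-cleaving ADAMTS9 fell by 1.79 ± 0.05 (limma with Benjamini-Hochberg adjustment, adjusted p = 1.02e-11) and ADAMTS15 by 1.88 ± 0.08 (limma, adjusted p = 4.64e-10). With siY/T in DMSO both genes rose, ADAMTS9 by 1.62 ± 0.05 (limma, adjusted p = 1.83e-10) and ADAMTS15 by 2.16 ± 0.08 (limma, adjusted p = 8.59e-10). Under Sorafenib with siATF4, 3 of the 52 exceeded 0.58 upward and 23 downward, beside 10.3% and 18.7% of all genes.

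Among the 23 MMP genes, 9 were tested, and with siATF4 in DMSO 3 rose and 3 fell, beside the same 8.57% and 14.1%, with a median of -0.19. Besides MMP1, MMP17 rose from 3.84 and 3.35 CPM in siCtrl DMSO to 9.04 and 8.38 CPM in siATF4 DMSO libraries. MMP19 rose from 0.727 and 1.09 to 2.16 and 2.24 CPM. Under Sorafenib MMP19 was at 1.55 and 1.47 CPM in siCtrl and 3.36 and 3.87 CPM in siATF4 libraries, while those of MMP17 overlapped. MMP24, a membrane-type enzyme, was at 9.46 and 8.65 CPM in siCtrl libraries with DMSO against 2.19 and 2.02 CPM with siATF4, a fall by 1.88 ± 0.12 (limma, adjusted p = 1.76e-08), and Sorafenib raised it in siCtrl cells by 1.29 ± 0.12 (limma, adjusted p = 9.20e-07). It thus followed MMP14 in direction in both. Among the inhibitors, RECK, a membrane-anchored inhibitor of metalloproteinases, fell by 0.72 ± 0.07 with siATF4 in DMSO (limma, adjusted p = 1.65e-06), so that 3 of the 4 MMP inhibitors tested fell. The other inhibitor, TIMP1, was at 0.37 ± 0.06 (limma, adjusted p = 9.36e-05), under the fold threshold. With siATF4 under Sorafenib, 2 of the 4 were past 0.58 downward, beside 18.7% of all genes, without a test. There RECK was at 16.0 and 14.8 CPM, against 18.5 and 17.0 CPM in siCtrl Srf libraries. With siY/T in DMSO, RECK fell by 0.89 ± 0.07 (limma, adjusted p = 4.14e-07) while TIMP1 rose.

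Of the 15 genes of the plasminogen system, 10 were tested, and with siATF4 in DMSO 2 rose and 4 fell, beside 8.57% and 14.1% of all genes. LRP1, the endocytic receptor that clears urokinase and its inhibitor complexes, was at 156 and 147 CPM in siCtrl libraries with DMSO against 46.8 and 40.4 CPM with siATF4. It fell by 1.79 ± 0.06 (limma with Benjamini-Hochberg adjustment, adjusted p = 8.24e-11). SERPINE2, the inhibitor protease nexin-1, fell by 1.59 ± 0.08 (limma, adjusted p = 2.19e-09). Tissue plasminogen activator (PLAT) fell with siY/T under Sorafenib by 0.71 ± 0.08 (limma, adjusted p = 7.14e-06), the comparison in which PLAU also fell.

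Cathepsins and cystatins, lysosomal proteases and their inhibitors, had 2 rises and 2 falls among 12 tested with siATF4 in DMSO, beside 8.57% and 14.1% of all genes, and a median of 0.20. CTSB rose by 0.73 ± 0.06 (limma, adjusted p = 1.19e-07). With Sorafenib in siCtrl cells 5 rose, beside 12.3% of all genes, and the median of the list was 0.49 against 0.05 over all genes. Furin and related surface and activating proteases had 3 falls among 6 tested with siATF4 in DMSO, FURIN by 0.66 ± 0.08 (limma, adjusted p = 5.26e-06).

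The AP-1 and ETS factors, 13 genes of the transcription factor families named above, were measured beside MMP1 and PLAUR. Whether each of the 13 raises or lowers these genes was not tested. This list was written with earlier results of these data known, so its counts are descriptions. With siATF4 in DMSO, 8 of 13 rose, beside 8.57% of all genes, with a median of 0.94, and 0 fell by limma, edgeR or DESeq2 (1 at an unadjusted P under 0.05 with a smaller fold). FOSL1, an AP-1 subunit, was at 215 and 199 CPM in siCtrl libraries with DMSO against 547 and 539 CPM with siATF4, a rise of 1.39 ± 0.12 (limma with Benjamini-Hochberg adjustment, adjusted p = 4.76e-07). ETV4, an ETS factor, rose by 1.62 ± 0.16 (limma, adjusted p = 1.47e-06). Under Sorafenib, siATF4 took 8 of the 13 past 0.58 upward and 2 downward, beside 10.3% and 18.7% of all genes, without a test. The 2 downward were the AP-1 subunits JUNB and JUND. JUNB had means of 17.7 CPM in siCtrl Srf and 11.2 CPM in siATF4 Srf libraries, and JUND of 58.6 and 27.7 CPM. With Sorafenib 5 of the 13 fell in control cells, 8 with siY/T and 6 with siATF4, beside 5.15%, 4.14% and 2.95% of all genes. In the first 2 of these, 0 rose by limma, edgeR or DESeq2, with 1 and 0 at an unadjusted P under 0.05 in that direction. With siY/T in DMSO the list split, with 5 rises and 3 falls beside 11.0% and 3.61% of all genes: ETV1 rose by 1.98 ± 0.12 (limma, adjusted p = 2.63e-08) and ETV5 by 1.00 ± 0.08 (limma, adjusted p = 4.11e-07), while MMP1 and PLAUR fell. The other rises were those of FOS, JUNB and ETV4. Their means in siCtrl DMSO and siY/T DMSO libraries were 0.384 and 1.86 CPM for FOS, 18.6 and 34.4 CPM for JUNB, and 4.50 and 7.79 CPM for ETV4. The 3 falls were on the side of MMP1 and PLAUR: ETS1 by 0.88 ± 0.04 (limma, adjusted p = 7.29e-09), ETS2 by 0.73 ± 0.08 (limma, adjusted p = 3.33e-06) and FOSL1 by 0.70 ± 0.12 (limma, adjusted p = 3.14e-04). JUN was at -0.58 ± 0.06, just short of the fold threshold. The part of these factors in the changes of MMP1 and PLAUR was not tested.

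**Figure D4:**
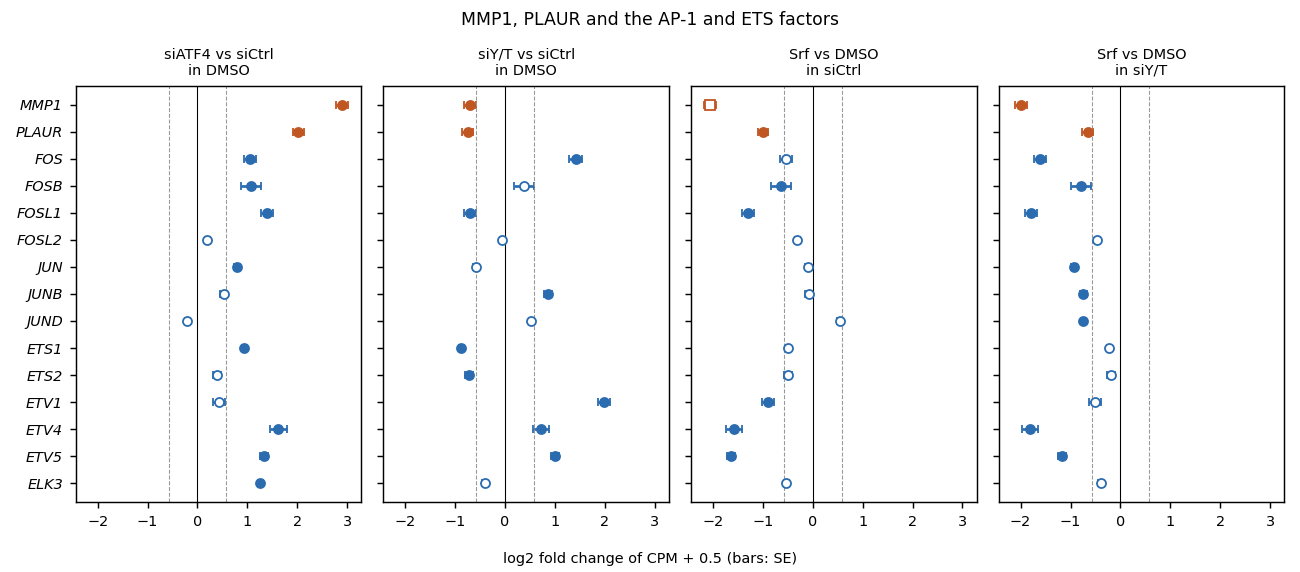
Log2 fold changes of CPM + 0.5 with SE bars for MMP1 and PLAUR (orange) and the 13 AP-1 and ETS factors (blue) in 4 comparisons, with filled symbols past the call, open circles not, and an open square without a test. With siATF4 in DMSO 8 of the 13 factors lie past 0.58 on the side of MMP1 and PLAUR, and with siY/T the factors lie on both sides.

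Over the 12 libraries, which fall into the same 6 groups for every gene, the 5 genes whose log2(CPM + 0.5) was most like that of MMP1 had Pearson correlations of 0.989 to 0.992. They were SLC20A1 (a phosphate transporter), DGCR8 (a microRNA processing factor), CCDC137, CNRIP1 and RBM8A (an exon junction protein), out of 11151 genes that averaged 5 CPM or more. Among the members, PLAUR ranked 104 with 0.973, whereas TIMP2 had -0.963, MMP14 -0.889, PLAU -0.514 and TIMP1 -0.192. These values are descriptions, since the libraries of a group share their treatment and the range of MMP1 is set by both siATF4 and Sorafenib.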

How the data were processed

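The authors aligned reads with STAR to hg19, kept those with a unique hit, used QuasR to count over exons of RefSeq mRNAs, and deposited 1 table of CPM. Their own test used edgeR. All values (100%) were a whole number of reads within 0.001 read, and those reads were recovered. The stated Sorafenib dose, number of replicates, kits and sequencers differ between the labels and the study's text. Depth was 41408348 to 53619732 reads per library. Entrez identifiers were named from RefSeq, and GRCh37 positions came from GENCODE.

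Genes with at least 1 CPM in 2 libraries (13515, of which 8 members) were fitted as log2(CPM + 0.5) in limma 3.58.1 (R 4.3.3), using all 12 libraries, a coefficient for each group and a variance trend. A call needed unadjusted two-sided P under 0.05 and 0.58 or more in log2 fold change, thresholds taken from the study, and differences between effects needed Benjamini-Hochberg adjusted P under 0.05. The members and lists were chosen with earlier results of these data known. MMP1 carries no p where a comparison shares libraries with siATF4 against siCtrl under Sorafenib. Named beyond the members are, per list and comparison, called genes with the largest change (at most 2, of which some are given) that averaged 5 CPM or more and whose libraries did not overlap, the neighbours of MMP1, the siRNA targets and the 5 genes most correlated with MMP1. WTAPP1 and C10orf55 were named because they overlap members. ETS1, ETS2, FOS, JUN, JUNB, JUND, MMP17, MMP19 and single markers were named after their values were seen. An item withheld for evaluation is not reported here.

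Alternatives were pseudocounts of 0.1 and 1, no filter, TMM scaling, only the groups compared, a replicate block, count tests on recovered reads with edgeR 4.0.16 or DESeq2 1.42.0, adjusted P for calls, and leaving out each library. The steps were tested on simulated data. Figures used Python 3.11.15 and matplotlib 3.10.9.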

Additional observations from a re-analysis of the deposited data

Results flagged for a closer look

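PLAU, TIMP3, TIMP2 and MMP15 were singled out because the effect of siY/T differed between Sorafenib and DMSO by the interaction term of limma, with Benjamini-Hochberg adjustment over all 13515 genes. The effect under Sorafenib minus that in DMSO was -0.73 ± 0.07 for PLAU (adjusted p = 7.68e-05), -1.23 ± 0.18 for TIMP3 (adjusted p = 7.84e-04), -0.38 ± 0.06 for TIMP2 (adjusted p = 7.96e-04) and -0.73 ± 0.11 for MMP15 (adjusted p = 9.64e-04). In each, the siCtrl libraries were higher with Sorafenib, by 0.43 to 0.96, and the difference in siY/T libraries was smaller or negative, from -0.80 to 0.22. PLAU was also singled out for siATF4, because both siATF4 libraries lay above both controls in DMSO (493 and 467 against 438 and 411 CPM) and below both under Sorafenib (444 and 423 against 833 and 812 CPM). That difference of effects was -1.10 ± 0.07 on the log2 scale and was not tested.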

How the results depend on the processing

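Of the log2 fold changes of single members under the alternatives, 1383 stayed the same. For tested values this meant the same direction and side of the threshold, and for untested values a move of less than 1 SE. Another 12 no longer passed, 9 newly passed, 16 untested values moved by 1 SE or more and 4 changed sign. The sign changes were TIMP1 values near 0 when single libraries were left out: -0.114 to 0.0801 for Sorafenib in siY/T cells, positive without siY/T DMSO replicate 1, and -0.0922 to 0.102 for its siY/T by Sorafenib difference, negative without siCtrl Srf replicate 1, siCtrl DMSO replicate 2 or siY/T DMSO replicate 2. Members called with Sorafenib in siCtrl cells numbered 2 to 4 when single libraries were left out, the lowest without siCtrl DMSO replicate 2. With Sorafenib in siATF4 cells 1 member in place of 2 was called with a pseudocount of 1, where TIMP3 fell short by construction of the scale. Where a library was left out, the lone library of its group was assumed to vary like the other groups. Over all genes, the falls with siY/T in DMSO numbered 488, but 633 with TMM scaling, 739 with edgeR and 771 with DESeq2. The rises numbered 1485, but 1251 with TMM scaling. The share of rises among the calls was 75.3%, against 66.4% with TMM scaling, 67.0% with edgeR and 64.2% with DESeq2. With siY/T under Sorafenib that share was 61.4%, and 53.0% with TMM scaling. The main fit used CPM without such scaling, so its shares of all genes depend on that choice. The cause was not tested. Correlations between groups of the deviations by replicate number ran from -0.28 to 0.19. They were 0.036 to 0.19 among the DMSO groups, 0.10 to 0.16 among the Sorafenib groups, and -0.28 to 0.0054 between DMSO and Sorafenib groups. A weak pairing within each drug arm is thus not excluded, and a replicate block shared by both arms could not capture it. A fit with the replicate block called the same numbers of members as the fit without it, 4, 5, 4, 4, 3 and 2 in the 6 tested comparisons and 4 in the siY/T by Sorafenib difference, and 1157 in place of 1158 rises with siATF4 in DMSO. The 2 libraries per group limit the precision, TIMP3 rests on 13 to 161 reads and MMP2 on 2 to 28 reads per library.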
